A study of Oryza sativa with 45 samples.

Results

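The comparison described here set Ta, a transgenic rice line, against the control line C in the F8 generation, with 3 pools of seedlings per line and 1 array per pool. Its 6 arrays were all those of the series whose labels gave generation F8, line Ta or C and no salt-stressed ancestors, out of 45 arrays in all. Every one of the 54922 probe sets of the rice array was tested.

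The study followed C, Ta and NSb seedlings of Oryza sativa ssp. japonica cv. Nipponbare through generations F4, F6 and F8, with salinity imposed on part of the F6 seedlings. Each pool held 10 whole seedlings, 15 days old, grown in nutrient solution without salt for the arrays compared here, and no forebear of these seedlings had been exposed to salinity either. C was the untransformed cultivar, raised from seed with no passage through in vitro culture. Ta descended from 1 transformation event, made with Agrobacterium, in which the rice gene OsICE1 fused to a TAP-tag was driven by the maize ubiquitin promoter and a hygromycin resistance gene served for selection. NSb, the third line, was a negative segregant, a plant that had been through transformation and culture in its ancestry but had lost the transgene, and it came from a different transgenic plant, b. Plant b also carried OsICE1 under the maize ubiquitin promoter, but without the TAP-tag. Ta and C therefore differed in the transgene, in any alteration made by its insertion and in a history of in vitro culture. NSb shared the culture history and an ancestor with an OsICE1 transgene, and could keep alterations from the insertion in plant b. In Ta against C alone these factors cannot be told apart. For this reason the NSb values stand beside those of Ta below, and since Ta against C and NSb against C share the C arrays, they are given side by side without a test of one against the other. The hour of harvest was not given in the sources used here.

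ICE1 is a basic helix-loop-helix transcription factor, known from Arabidopsis as an activator of the CBF genes, which rice calls DREB1. The DREB1 factors switch on genes for tolerance of cold and of water loss. Jasmonate signalling meets the same pathway, since JAZ proteins, the repressors of jasmonate responses, bind ICE1 in Arabidopsis and hold back its activity.

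The arrays were of even quality. Signals are on the log2 scale after RMA, which corrects background, brings the arrays to 1 distribution and summarises the probes of a probe set, so that a difference of 1 is a doubling. The array medians lay between 4.55 and 4.56, which RMA itself brings about, and the median SD between pools was 0.137 in C and 0.124 in Ta. The 6 arrays correlated at 0.987 to 0.99 within a line and at 0.986 to 0.989 between lines. Such values mostly follow the levels of different probe sets, so they do not tell how many transcripts differed between the lines. The number of arrays, 3 against 3, limits the precision, and nothing in the labels says how the pools of a line were kept apart in culture, so the p-values measure the spread between pools. A level under the array median may be largely background, in which case a fold change is understated. In pools of whole seedlings, fewer cells of a type and less RNA per cell cannot be told apart.

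Markers of leaf were plainly present. The summed linear signal of the 6 leaf markers was 3847 to 4357 in the C pools and 3995 to 4447 in the Ta pools, with overlapping ranges. The 14 markers of seed remnant had 13 members below the array median on every one of the 6 arrays, and the 4 panicle markers were all below it. The 11 root markers did not show 1 direction. Of these, 1 was higher and 1 lower at an adjusted p under 0.05, where 0.266% of all probe sets were higher and 0.242% lower. Among the 11 root markers 6 differences were above 0 (27437 of 54922 over all probe sets), and the median difference was 0.07. Their mean log2 signal was 5.45 to 5.50 in C and 5.41 to 5.56 in Ta. Their summed linear signal, which the few brightest members carry, was 3564 to 3600.1 in C, 2589.6 to 2983 in Ta and 3269 to 3301 in NSb, so every Ta pool lay below every C and NSb pool, although 3 to 5 of the 11 were below the array median in each pool.

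The selectable marker and the transgene checked the labels of the pools. The hygromycin B phosphotransferase probe set, which matches no rice gene, read 3.85, 3.66 and 3.80 in the C pools and 11.56, 11.44 and 11.53 in the Ta pools. The NSb pools read 3.80, 3.75 and 3.80, at the level of C. The difference between Ta and C was 7.74 (SE 0.09, limma, Benjamini-Hochberg adjusted over the whole array, adjusted p = 1.92e-10), a 214-fold higher signal. ICE1 (LOC_Os11g32100, chromosome 11, 18455855 to 18459068 of the array's rice annotation) read 5.67, 5.68 and 5.91 in C against 9.09, 9.39 and 9.51 in Ta. Its transcript was 12.0-fold higher in Ta (log2 difference 3.58, SE 0.12, adjusted p = 2.36e-06), and the NSb pools, at 5.74, 5.68 and 5.64, lay at the C level. The probes do not tell the endogenous transcript from that of the transgene.

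By the study's own thresholds, a change of 3-fold or more and an adjusted p below 0.05, 19 of the 54922 probe sets were called, 0.0346% of those tested. Of these, 17 were higher and 2 lower in Ta. Without a minimum of fold, 279 transcripts (0.508%) had an adjusted p under 0.05, 146 higher (0.266%) and 133 lower (0.242%), and their median change in size was 0.80 on the log2 scale. An unadjusted p under 0.05 was found for 5344, more than the share of 0.05 that would pass where none differed. In all 279, every Ta pool lay on the same side of every C pool. Their choice by p on these same pools made that nearly certain, so it adds no support. Of all probe sets, 8.3% were separated in this way upward and 7.86% downward. The calls above 3-fold were thus mostly increases, while the smaller changes were divided nearly evenly.

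**Figure D1:**
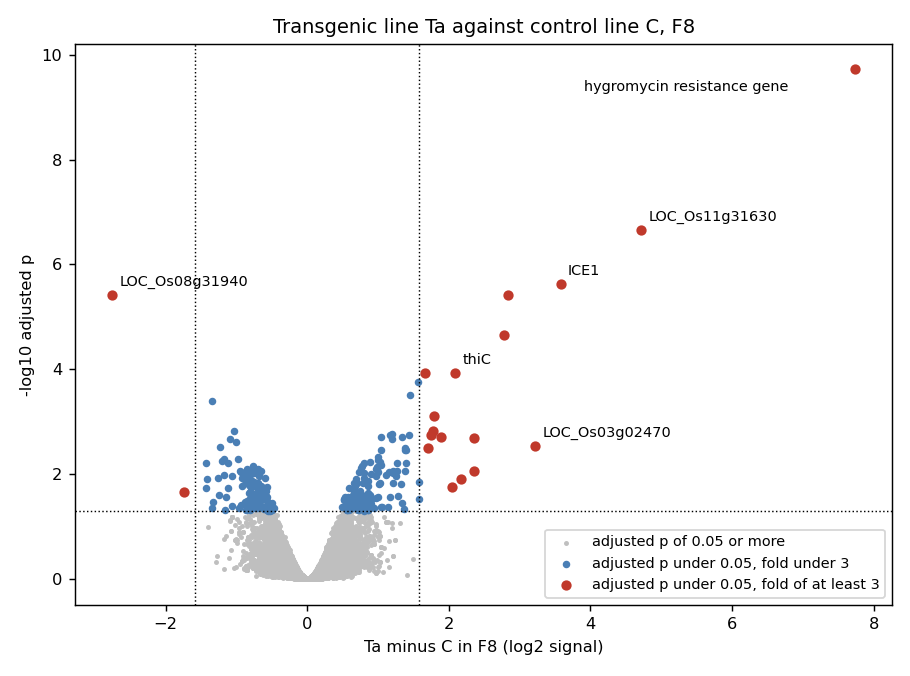
Log2 difference of RMA signal between Ta and C in F8 (x axis) against the −log10 of the adjusted p (y axis) for all 54922 probe sets, 1 point each. Dotted lines mark an adjusted p of 0.05 and a fold of 3 either way; 17 of the 19 points past both lie on the right and 2 on the left.

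The level of C matters to how these 19 are read. In 11 of the 19 the mean of the C pools was below the array median, and in 2 the mean of the Ta pools was below it too. Of the 146 higher at any fold, 59 had a C mean below the median. Only 11 of the 19 called probe sets carried a gene symbol, and several of the largest changes were in transcripts annotated as hypothetical or expressed proteins with no known role.

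A group of 6 called transcripts were also high in NSb, the line without the transgene. LOC_Os11g31630, a conserved hypothetical protein gene in the array's annotation, on chromosome 11 (18029726 to 18031736), read 4.20, 4.61 and 4.61 in C, 9.25, 9.10 and 9.23 in Ta, and 8.99, 9.02 and 8.91 in NSb. The difference from C was 4.72 in Ta (SE 0.12, adjusted p = 2.21e-07) and 4.50 in NSb (SE 0.12, adjusted p = 6.88e-07). Both lines descended from plants that had been through culture lay far above C, with no overlap.

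In the study's text LOC_Os11g31630 is named an hrpA-like helicase and Os12g0428300 a retrotransposon gag protein. The other 5 of that group differed in how close Ta and NSb stood. Os12g0428300 read 3.96, 3.79 and 4.12 in C, 6.89, 6.70 and 6.76 in Ta, and 6.82, 6.77 and 6.90 in NSb, with overlapping Ta and NSb pools. Its difference from C was 2.83 in Ta (SE 0.11, adjusted p = 3.87e-06) and 2.87 in NSb (SE 0.11, adjusted p = 4.88e-06). LOC_Os01g35330, annotated as a putative circumsporozoite protein precursor, read 7.70, 7.14 and 6.74 in C, 9.39, 9.62 and 9.61 in Ta, and 9.27, 9.49 and 9.51 in NSb. The C pools of this transcript were spread over nearly 1 log2 unit, but all lay below the other pools (Ta minus C 2.35, SE 0.21, adjusted p = 0.00202, and NSb minus C 2.23, SE 0.21, adjusted p = 0.00496). LOC_Os02g26730, a short hypothetical gene, read 3.44, 3.46 and 3.47 in C against 5.72, 5.07 and 5.24 in Ta (1.89, SE 0.16, adjusted p = 0.0019), and NSb minus C was 1.98 (SE 0.16, adjusted p = 0.00221).

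LOC_Os03g43100 and LOC_Os03g02470, expressed proteins encoded on chromosome 3, rose to different heights in the 2 lines. For LOC_Os03g43100 the pools read 2.99, 3.26 and 2.81 in C, 5.90, 5.65 and 5.83 in Ta, and 5.35, 5.12 and 5.22 in NSb, so that Ta was the highest line (2.77 over C, SE 0.13, adjusted p = 2.16e-05). For LOC_Os03g02470 the order was the opposite one, with 2.13, 3.54 and 3.01 in C, 6.02, 6.33 and 5.98 in Ta, and 8.47, 8.75 and 8.27 in NSb. Ta exceeded C by 3.22 (SE 0.30, adjusted p = 0.00287) and NSb exceeded C by 5.60 (SE 0.30, adjusted p = 7.05e-05). The C levels of both were under the array median.

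One of the 2 called decreases stood in the same relation to NSb, though without passing the test there. LOC_Os02g37260, a hypothetical protein gene, read 7.93, 7.93 and 7.79 in C and 6.36, 6.60 and 5.46 in Ta, with a difference of -1.74 (SE 0.25, adjusted p = 0.0214). The NSb pools, at 6.14, 6.41 and 6.0, also lay below C, with a difference of -1.70 (SE 0.25) and an adjusted p of 0.106. This call was lost when any of the 3 C pools, Ta pool 1 or Ta pool 3 was left out, and in the fit on the 6 arrays alone.

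The remaining called transcripts separated Ta from C with NSb at or near the C level. The other decrease, LOC_Os08g31940, an expressed protein gene on chromosome 8 (19801419 to 19806091), read 6.68, 6.94 and 6.81 in C and 3.94, 4.17 and 4.05 in Ta. The signal was 6.75-fold lower in Ta (-2.75, SE 0.10, adjusted p = 3.87e-06), where it lay below the array median, and NSb read 6.77, 6.57 and 6.69. Os05g0425600 went the other way at low signal, with 2.57, 2.68 and 2.64 in C, 4.61, 4.43 and 4.11 in Ta (1.75, SE 0.15, adjusted p = 0.00175) and 2.42, 2.28 and 2.72 in NSb.

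**Figure D2:**
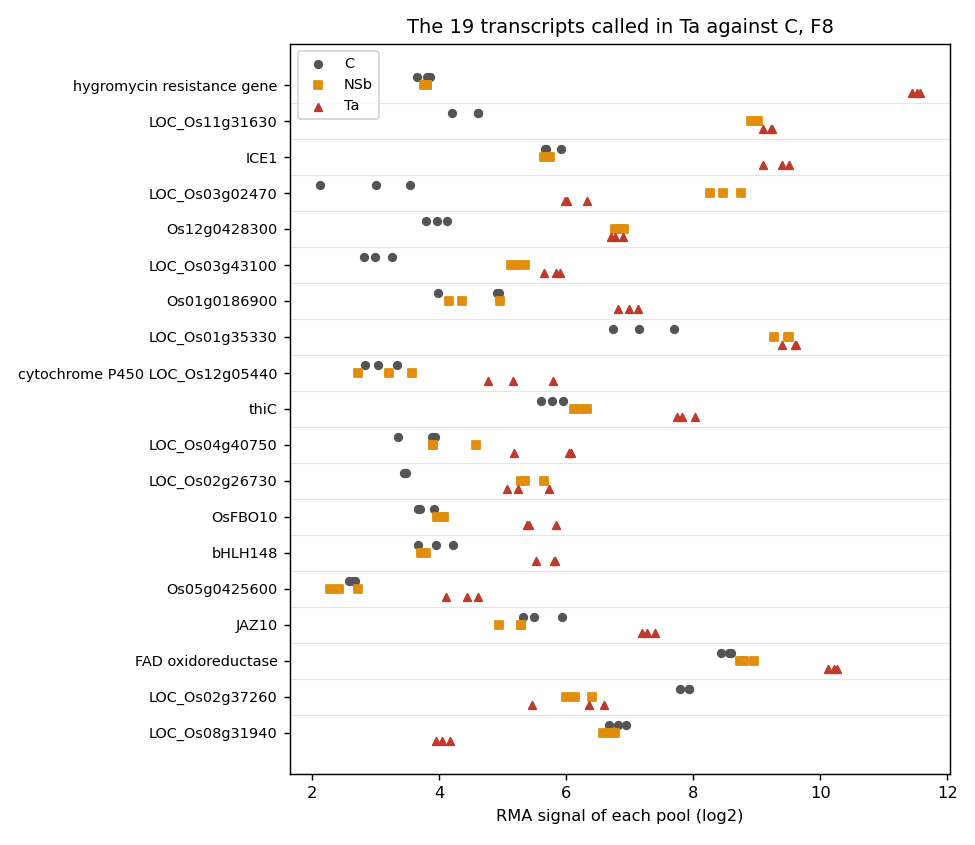
Log2 RMA signal (x axis) of each F8 pool for the 19 called transcripts, ordered by the Ta minus C difference; circles are C, squares NSb and triangles Ta, 3 pools each and no averaging. The Ta pools of ICE1 lie at 9.09 to 9.51, away from both other lines, whereas LOC_Os11g31630 lies far above C in NSb too (8.91 to 9.02), just under Ta (9.10 to 9.25).

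Apart from the hygromycin gene, 3 of the called transcripts are described as enzymes in the array's annotation. The rice thiC transcript (LOC_Os03g47610), whose product makes the pyrimidine part of thiamine in plastids, read 5.95, 5.77 and 5.60 in C and 8.02, 7.82 and 7.74 in Ta. It was 4.25-fold higher in Ta (2.09, SE 0.12, adjusted p = 0.000119). NSb read 6.33, 6.12 and 6.22, which was 0.45 above C (SE 0.12, adjusted p = 0.542). None of the 3 members of the thiamine synthesis list passed the test, and their median difference was 0.00; thiC itself was not among them, because it carries its name only in the array's description.

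LOC_Os07g34570, which encodes a protein with an FAD-dependent oxidoreductase domain, read 8.57, 8.43 and 8.60 in C, 10.26, 10.21 and 10.11 in Ta, and 8.96, 8.80 and 8.73 in NSb. The increase in Ta was 1.66 (SE 0.10, adjusted p = 0.000119), or 3.17-fold. The cytochrome P450 gene LOC_Os12g05440 read 3.04, 3.33 and 2.82 in C and 4.77, 5.15 and 5.79 in Ta (2.17, SE 0.28, adjusted p = 0.0123), with Ta pools spread over 1 log2 unit. Its call was lost without C pool 1, C pool 3 or Ta pool 2, and with the replicate number as a block.

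Regulatory genes made up the next group. JAZ10 (LOC_Os03g08330), a ZIM-domain repressor of jasmonate responses, read 5.31, 5.49 and 5.93 in C, 7.27, 7.40 and 7.19 in Ta, and 4.94, 5.29 and 5.29 in NSb. It was 3.27-fold higher in Ta than in C (1.71, SE 0.16, adjusted p = 0.00319), a fold that fell just under 3 when C pool 1 was left out (difference 1.58). BHLH148 (LOC_Os03g53020), a helix-loop-helix factor that binds JAZ proteins in rice, read 3.66, 3.95 and 4.21 in C and 5.52, 5.83 and 5.81 in Ta (1.78, SE 0.14, adjusted p = 0.00147). OsFBO10 (LOC_Os11g34460), an F-box protein gene of a class that selects other proteins for degradation, read 3.67, 3.69 and 3.92 in C and 5.83, 5.39 and 5.42 in Ta (1.79, SE 0.13, adjusted p = 0.000756). In all 3 of these genes the NSb pools lay below every Ta pool, at 3.71 to 3.79 for BHLH148 and 3.96 to 4.08 for OsFBO10.

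The last called transcripts, Os01g0186900 and LOC_Os04g40750, have no annotated function. Os01g0186900 read 4.95, 3.98 and 4.90 in C and 7.12, 6.98 and 6.81 in Ta (2.36, SE 0.27, adjusted p = 0.00858), with NSb at 4.15 to 4.95. LOC_Os04g40750 read 3.94, 3.35 and 3.88 in C and 5.18, 6.07 and 6.04 in Ta (2.04, SE 0.28, adjusted p = 0.0174), and lost its call without C pool 2, C pool 3, Ta pool 2 or Ta pool 3, or with the replicate block.

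Below the 3-fold mark, the transcripts that changed most included more genes of known function. GLT2, an NADH-dependent glutamate synthase gene of ammonium assimilation, read 6.53, 6.42 and 6.48 in C and 8.20, 8.01 and 7.92 in Ta (1.57, SE 0.10, adjusted p = 0.00017). Pir7b (LOC_Os01g70850), an esterase gene known in rice for its induction by bacteria, read 4.02, 4.06 and 4.10 in C and 6.15, 5.50 and 5.25 in Ta (1.57, adjusted p = 0.0142). The nitrate transporter gene NRT2.1 (LOC_Os02g02170) read 3.40, 2.90 and 3.15 in C and 4.72, 4.58 and 3.98 in Ta (1.28, adjusted p = 0.026). None of these increases had a counterpart past the threshold in NSb, where the differences from C were 0.47, -0.18 and -0.09.

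OsTPP1, a trehalose-6-phosphate phosphatase gene, rose from 4.02, 3.92 and 4.12 in C to 4.98, 5.35 and 5.52 in Ta (1.26, adjusted p = 0.00603). LOC_Os09g31380, annotated as a jmjC domain-containing protein (the domain of many histone demethylases), rose from 4.63, 4.59 and 4.33 to 6.06, 5.76 and 5.74 (1.34, adjusted p = 0.0019). Higher in Ta as well were a 3-ketoacyl-CoA synthase of fatty acid elongation (LOC_Os02g11070, 1.33, adjusted p = 0.0156), a plastocyanin-like protein (LOC_Os08g37660, 1.39, adjusted p = 0.00603) and a putative receptor-type resistance protein of the SlVe1 type (LOC_Os01g06870, 1.36, adjusted p = 0.0462). LOC_Os01g06870 passed in only 8 of 19 alternative settings. Transcripts with no known role rose in both lines again: LOC_Os07g01904 was 1.45 above C in Ta (adjusted p = 0.000302) and 1.74 in NSb (adjusted p = 7.05e-05), and LOC_Os04g58050 was 1.39 above C in Ta (adjusted p = 0.00343) and 2.51 in NSb (adjusted p = 7.05e-05). LOC_Os10g17750, a hypothetical gene, stood just under the fold of 3 at 1.57 (adjusted p = 0.0293).

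Named decreases were fewer, since most of the strongest had only a locus number. LOC_Os07g18874, a transporter gene of the ABC family's white-brown complex group, read 5.86, 5.68 and 5.64 in C and 4.53, 4.14 and 4.20 in Ta (-1.44, adjusted p = 0.00603). A rhamnogalacturonate lyase gene (LOC_Os08g44040), whose product cuts pectin of the cell wall, was lower by a difference of -1.33 (adjusted p = 0.034), and a dirigent protein gene (LOC_Os10g18820), of the family that guides lignan coupling, by -1.06 (adjusted p = 0.0409). The lyase and dirigent genes each passed in only 8 of 19 alternative settings. The 12 others of the strongest 15 with a symbol or description lay between -1.43 for LOC9269709 and -1.06 for LOC4337261. Among genes chosen after their values were seen, OsSWEET1b, a sugar transporter gene, changed by -0.70, MHX1, a cation exchanger gene, by -0.77, and OsSPO11-3, of the topoisomerase family, by -0.84.

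The cold regulon was described next with a list of 12 probe sets. It held DREB1 genes and other genes of the pathway, such as MPK3 and MYBS3, so not all members lie downstream of ICE1. Of these, 2 were higher in Ta at an adjusted p under 0.05, none was lower and 9 differences were above 0, with a median of 0.36 where the median over all probe sets was -0.00016 and 0.508% of all passed. CBF3, which is DREB1A, read 4.47, 4.17 and 4.38 in C and 5.05, 4.95 and 5.27 in Ta (0.75, SE 0.11, adjusted p = 0.0264). DREB1B read 2.13, 1.97 and 2.18 in C and 2.90, 2.74 and 2.74 in Ta (0.70, SE 0.09, adjusted p = 0.0145), all below the array median, as were 8 of the 12 members. Both calls were fragile: CBF3 passed in 9 of 19 alternative settings and DREB1B in 10 of 18, and both were lost on the 6 arrays alone, with the replicate block and without any single Ta pool or C pool 2. The differences of DREB1H (0.78, adjusted p = 0.107) and CBF1 (0.68, adjusted p = 0.0506) were of like size and did not pass. Both MPK3 probe sets and MYBS3, a rice regulator of the DREB1 genes in cold, did not pass. ICE1 itself is treated above and was not counted in this list. In F4 and in F6 without salt, where ICE1 was higher in Ta by 3.67 and 3.84, no member of the list passed. The list medians there were 0.06 and -0.10. CBF3 differed by 0.16 in F4 and 0.10 in F6, and DREB1B by 0.39 and -0.62.

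The JAZ repressors that changed were all higher in Ta. Of 13 measured, 3 passed the test and 11 differences were above 0, with a median of 0.32. Beside JAZ10 these were JAZ12 (0.73, SE 0.09, adjusted p = 0.00913) and JAZ2 (0.70, SE 0.11, adjusted p = 0.0354), while JAZ6 was at 0.63 (adjusted p = 0.0646). Over all probe sets 0.266% passed as higher. JAZ10 passed in all 19 alternative settings and JAZ12 in 17 of them, but JAZ2 in only 6 of 18. None of the 18 members of the jasmonate synthesis list, lipoxygenases and the enzymes after them, passed, and their median was 0.08. Of 16 basic helix-loop-helix factors, 1 passed, and it was BHLH148.

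Clock genes changed in both directions. LHY, the morning factor of the plant clock, read 10.07, 10.03 and 9.94 in C and 8.90, 9.05 and 8.97 in Ta, against 9.87, 9.81 and 9.80 in NSb. The Ta pools lay below both other lines (-1.04 against C, SE 0.08, adjusted p = 0.00147). OsPRR1, the counterpart of the evening gene TOC1, was higher, at 8.46, 8.41 and 8.35 in Ta against 7.87, 7.65 and 7.71 in C (0.66, adjusted p = 0.0207), a call that held in 12 of 19 alternative settings. OsPRR95 (0.49, adjusted p = 0.0501) and GI (0.35, adjusted p = 0.123) were above C without passing, and the other 3 of the 7 members differed less.

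**Figure D3:**
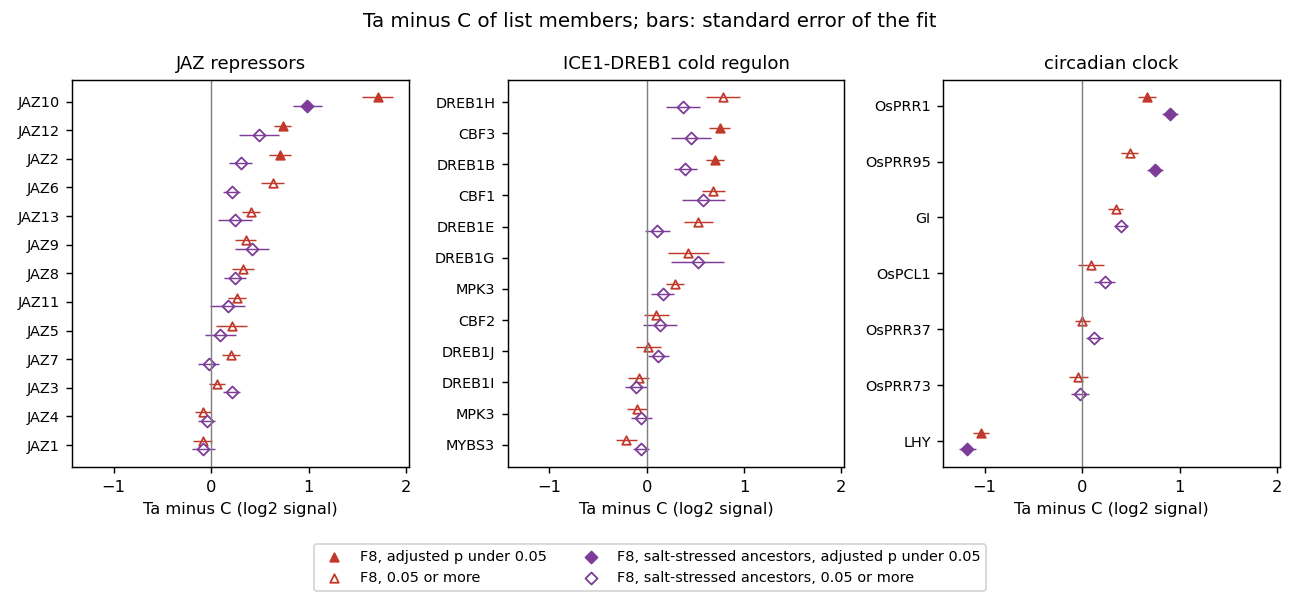
Ta minus C (x axis, log2 RMA signal) for each member of the JAZ, cold regulon and circadian clock lists; triangles are F8, diamonds F8 with salt-stressed ancestors, filled where the adjusted p was under 0.05, and bars are the standard error of the fit. LHY lies near -1 in both sets of pools and JAZ10 above every other JAZ gene in both, whereas no cold regulon member is filled with salt-stressed ancestors.

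The heat shock list held 3 of the increases. Of its 51 probe sets none was lower, 39 differences were above 0, and the median was 0.11; over all 54922 probe sets 0.266% were higher and 27437 differences were above 0. HSF24, a heat stress transcription factor gene, read 4.27, 4.17 and 4.45 in C and 5.77, 5.67 and 5.75 in Ta (1.43, adjusted p = 0.00175). HSP81-1, a chaperone of the HSP90 family, read 6.53, 6.15 and 6.36 in C and 7.54, 7.53 and 7.59 in Ta (1.21, adjusted p = 0.0093). The third was CLPB-M, a ClpB chaperone gene (0.80, adjusted p = 0.00922). In NSb these genes differed from C by -0.01, 0.13 and -0.01.

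Hormone and defence lists held scattered changes, to be read beside the shares over all probe sets, 0.266% higher and 0.242% lower. Of 6 WRKY genes, OsWRKY71 was higher (1.04, adjusted p = 0.00343). Of 78 abscisic acid genes 2 were higher, CYP707A5 (LOC_Os02g47470, 0.96, adjusted p = 0.0108), of the family that inactivates abscisic acid by hydroxylation, and OsSAPK9 (0.72, adjusted p = 0.0488), a protein kinase of abscisic acid signalling; the list's median was -0.04. CYP707A5 also stood on the list of 38 cytochrome P450 genes, where the only other passing member was CYP701A9 (-0.79, adjusted p = 0.0441). OsSAPK9 passed in only 7 of 19 alternative settings and CYP701A9 in 7 of 18. The 2 passing members of the ethylene list of 24 were the DREB1 genes already named, which belong to the ERF family. No member passed among 57 auxin response genes, 15 chitinases and PR proteins, 7 LEA and dehydrin genes or the 5 F-box genes of the list. The called F-box gene OsFBO10 and the called P450 gene LOC_Os12g05440 are on neither list, since they carry those names only in the array's description.

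Transporter lists are read beside the root markers, whose summed linear signal was lower in every Ta pool while 6 of 11 members were above C. Over all probe sets 0.266% were higher and 0.242% lower. Of 27 aquaporins, 2 were lower, OsPIP1;3 (-0.58, adjusted p = 0.0426) and OsPIP2;3 (LOC_Os04g44060, -0.71, adjusted p = 0.0447), water channels of the plasma membrane. Each passed in only 8 of 18 alternative settings. Lsi2, the silicon efflux transporter of rice roots and 1 of the root markers, read 10.78, 10.73 and 10.74 in C and 10.12, 10.20 and 10.12 in Ta (-0.60, adjusted p = 0.0117), with no overlap. It passed in 12 of 18 alternative settings. At this level Lsi2 carries much of the root marker sum, so its decrease and the lower sum are not separate observations. The median difference of the root markers was 0.07. NRT2.1, another of the 11 root markers, was higher in Ta, as given above. Of 32 nitrate, ammonium and phosphate transporters 2 were higher, NRT2.1 and OsPHT3 (0.80, adjusted p = 0.0491), and 1 lower, OsPHO1;3 (-0.85, adjusted p = 0.0436). These calls were fragile: NRT2.1 passed in 10 of 18 alternative settings, and OsPHT3 and OsPHO1;3 in 6 of 19 each. The part of root content in these values was not tested.

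The other lists held 1 change or none, where 0.508% of all probe sets passed. One of 9 metallothioneins, MT4C, was lower (-0.57, adjusted p = 0.0177) and passed in 10 of 18 alternative settings. Among 45 expansins, 8 light-harvesting and photosystem genes and 30 genes of RNA silencing and DNA methylation no member passed, and the median of the last was 0.07. The 27 ribosomal protein genes had 24 differences above 0 and a median of 0.15 with none passing. Over all the lists 22 of 536 distinct probe sets passed, a total that became 9 in the fit on the 6 arrays alone and 11 with the replicate block.

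The same 2 lines were also measured in F8 in separate pools whose ancestors had been under salinity in F6, and these 6 arrays share none with the comparison above. There 15 transcripts were called (14 higher, 1 lower, 0.0273%) and 221 had an adjusted p under 0.05 (0.402%), 134 higher (0.244%) and 87 lower (0.158%). Of the 279 transcripts, 277 (99.3%) had the same sign in the pools with salt-stressed ancestors, against 58.1% of all probe sets. An adjusted p under 0.05 was reached there by 100 of them, 35.8% of the 279 and 45.2% of the 221, with 63 of the 146 increases and 37 of the 133 decreases. The median of the 146 was 0.86 without and 0.69 with salt-stressed ancestors, and that of the 133 was -0.74 and -0.51. The test of the difference between the 2 differences found no transcript at an adjusted p under 0.05 (limma, 18 arrays, smallest adjusted p 0.686). An unadjusted p under 0.05 was found for 2785 of 54922, close to the share of 0.05 that would pass where none differed.

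Of the 19 called transcripts, 14 passed in the pools with salt-stressed ancestors too. The thiC transcript read 5.54, 5.87 and 5.72 in C and 8.03, 8.37 and 8.19 in Ta there (2.49, SE 0.12, adjusted p = 4.68e-05). ICE1 differed by 3.73, LOC_Os11g31630 by 3.97 and LOC_Os08g31940 by -2.54. LHY was lower again, with 10.01, 9.99 and 10.04 in C and 8.90, 8.68 and 8.92 in Ta (-1.18, SE 0.09, adjusted p = 0.000617), and OsPRR1 was higher by 0.90 (adjusted p = 0.00264). For the jmjC gene LOC_Os09g31380 the difference was 1.62 (adjusted p = 0.000617), and for GLT2 it was 1.24 (adjusted p = 0.0046).

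Some values were smaller there. JAZ10 read 5.46, 5.36 and 5.37 in C and 6.34, 6.08 and 6.74 in Ta (0.99, adjusted p = 0.0328), and it was the only JAZ gene of the list to pass. No member of the cold regulon passed and the median of that list was 0.15. Differences of HSF24 (0.81, adjusted p = 0.0656) and HSP81-1 (0.41, adjusted p = 0.329) missed the threshold. For LOC_Os04g40750 the difference was 0.16 (SE 0.24, adjusted p = 0.889), and for Pir7b it was 0.11 (SE 0.13, adjusted p = 0.84), with C pools at 3.82, 4.18 and 4.31 and Ta pools at 4.23, 4.15 and 4.26. Os01g0186900 rose strongly in 1 Ta pool only, at 5.12, 4.86 and 7.31 against 4.01 to 4.18 in C. The summed root markers were 3614 to 3659 in C and 3174 to 3849 in Ta, so here the 2 lines overlapped, while Lsi2 differed by -0.27 (adjusted p = 0.26).

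**Figure D4:**
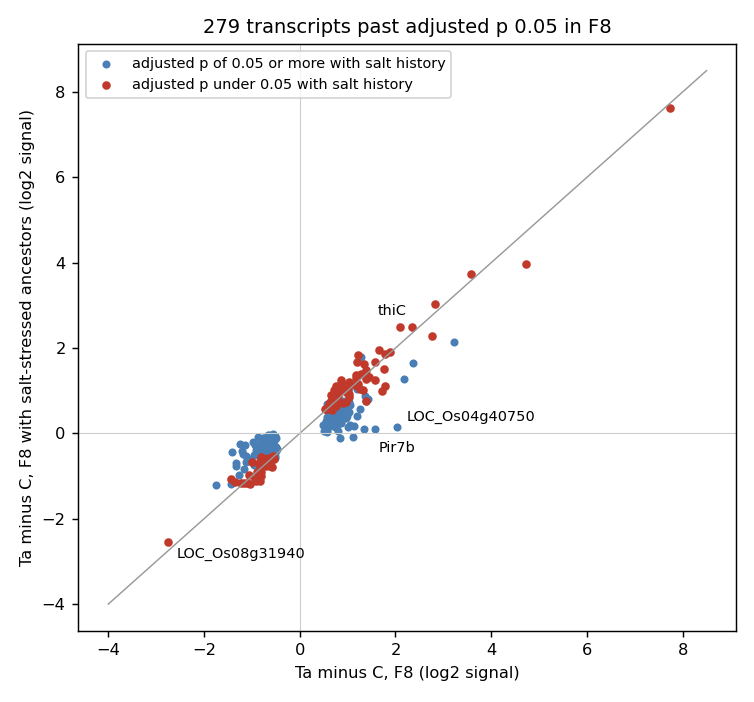
Ta minus C in F8 (x axis) against Ta minus C in the F8 pools with salt-stressed ancestors (y axis), both in log2 RMA signal, for the 279 transcripts with an adjusted p under 0.05 on the x axis; the line marks equal values. The 100 points in red also had an adjusted p under 0.05 on the y axis, and 277 points have the same sign on both.

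Earlier generations of the same lines gave a further reading in arrays of their own, 3 pools per line in F4 and in F6 without salt. Levels of the generations appear to have been normalised apart, so only differences within a generation are compared. In F4 17 transcripts were called (0.031%) and 90 had an adjusted p under 0.05 (0.164%), 69 of them higher in Ta (0.126%) and 21 lower (0.0382%). In F6 11 were called (0.02%) and 25 had an adjusted p under 0.05 (0.0455%), 17 higher (0.031%) and 8 lower (0.0146%). Of the 279 transcripts of F8, 158 (56.6%) had the same sign in F4 and 192 (68.8%) in F6, where 53.2% and 52.7% of all probe sets did. An adjusted p under 0.05 was reached in F4 by 21 of them (7.53% of the 279 and 23.3% of the 90) and in F6 by 16 (5.73% of the 279 and 64.0% of the 25).

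A group of 9 of the 19 called transcripts passed in F4, in F6 and in both sets of F8 pools. They were the hygromycin gene, ICE1, LOC_Os11g31630, Os12g0428300, LOC_Os03g43100, LOC_Os01g35330, LOC_Os02g26730, Os05g0425600 and LOC_Os08g31940. For ICE1 the difference was 3.67 in F4 (SE 0.12), 3.84 in F6 (SE 0.21) and 3.58 in F8. For LOC_Os08g31940 it was -2.45 in F4 (SE 0.19), -2.17 in F6 (SE 0.16) and -2.75 in F8, and for Os05g0425600 1.46, 1.71 and 1.75. Below the fold of 3, LOC4347553 was lower in each generation by a similar size, at -1.45 in F4, -1.40 in F6 and -1.09 in F8.

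Another group of 5 passed in both sets of F8 pools but, with all arrays in the fit, in neither F4 nor F6. These were thiC, the FAD oxidoreductase gene LOC_Os07g34570, OsFBO10, BHLH148 and JAZ10. In F4 the thiC transcript read 6.44, 6.46 and 6.51 in C and 6.34, 6.34 and 6.52 in Ta (-0.07, SE 0.09, adjusted p = 0.799), and in F6 it read 4.33, 4.27 and 5.62 in C and 5.54, 5.23 and 5.14 in Ta (0.57, SE 0.31, adjusted p = 0.729). The C pool 3 of F6, which correlated least with its group, set that value: without it, an alternative added after the data were seen, the F6 difference was 1.00 (SE 0.13, adjusted p = 0.0297), every Ta pool lay above C, and thiC passed in F6 too. The F8 difference exceeded that of F4 by 2.16 (SE 0.31, adjusted p = 0.00105) and that of F6 by 1.52 (SE 0.31, adjusted p = 0.0352), or by 1.08 (SE 0.16, adjusted p = 0.00167) without that C pool, by the test of the difference of differences.

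For LOC_Os07g34570 the F4 pools ran the other way, at 9.29, 9.47 and 9.27 in C and 8.47, 8.53 and 8.78 in Ta (-0.75, adjusted p = 0.0772). The F8 difference was larger than that of F4 by 2.42 (adjusted p = 4.86e-05) and than that of F6 by 1.39 (adjusted p = 0.0103). For OsFBO10 the corresponding values were 2.19 (adjusted p = 4.86e-05) and 1.66 (adjusted p = 0.00295). BHLH148 differed from F6 by 1.79 (adjusted p = 0.0321) and from F4 by 1.37 (adjusted p = 0.104), and JAZ10 from F6 by 2.16 (adjusted p = 0.00635) and from F4 by 0.54 (adjusted p = 0.693). The JAZ10 difference in F4 was 1.17 and did not pass (adjusted p = 0.203), though it was larger than the 0.99 that passed with salt-stressed ancestors. In F6, JAZ10 read 8.14, 8.32 and 8.04 in C and 7.59, 7.81 and 7.76 in Ta, below C in all 3 pools, with a difference of -0.45 that did not pass (adjusted p = 0.533).

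**Figure D5:**
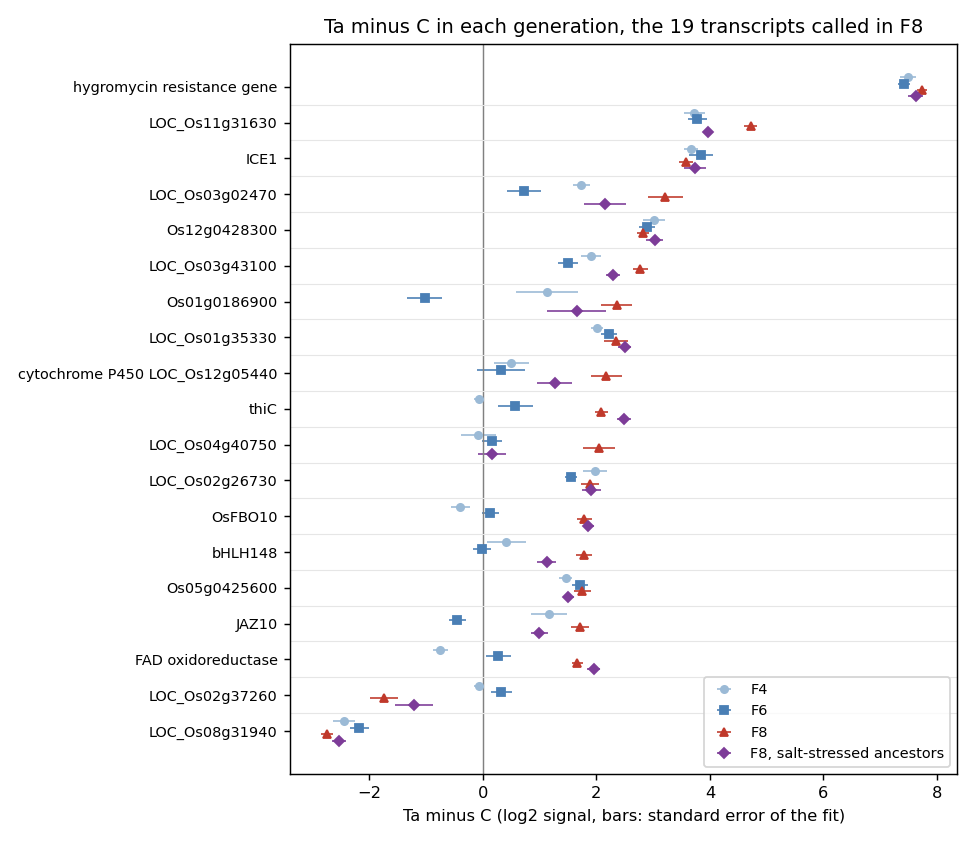
Ta minus C (x axis, log2 RMA signal) in F4, F6, F8 and F8 with salt-stressed ancestors for the 19 transcripts called in F8; bars are the standard error of each fit on 9 arrays. ICE1 stays at 3.58 to 3.84 in all 4 sets, whereas thiC lies at -0.07 in F4, 0.57 in F6, 2.09 in F8 and 2.49 with salt-stressed ancestors.

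LHY belonged with this second group in its pattern. Its pools read 9.91, 10.04 and 9.97 in C and 10.13, 10.12 and 10.10 in Ta in F4 (0.14, SE 0.07, adjusted p = 0.457), and 10.43, 10.33 and 10.00 in C and 10.20, 10.19 and 10.30 in Ta in F6 (-0.02, SE 0.12, adjusted p = 0.981). The F8 difference was lower than that of F4 by a difference of -1.18 (SE 0.12, adjusted p = 4.86e-05) and than that of F6 by -1.02 (SE 0.12, adjusted p = 0.000824). The jmjC gene LOC_Os09g31380 differed from F4 by 1.82 (adjusted p = 0.000248) and from F6 by 1.38 (adjusted p = 0.00796). For OsPRR1 the differences between generations, 0.71 and 0.57, did not pass (adjusted p = 0.254 and 0.495).

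Across all probe sets the F8 difference departed from that of F4 in 302 transcripts (0.55%, 93 higher in F8 and 209 lower) and from that of F6 in 128 (0.233%, 88 higher and 40 lower). Of the 279 transcripts of F8, 90 differed from F4, 59 from F6 and 35 from both. Of the 19 called, 5 differed from F4, 9 from F6 and 10 from at least 1 of them. The 279 and the 19 were chosen on F8 arrays that also enter these differences, which raises their counts, so the counts are no separate support for a change. The totals over all probe sets depend on 1 array of F6, the C pool 3, which correlated least with its group (mean r 0.978): without it 512 transcripts differed from F4 and 410 from F6.

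A group of 4 called transcripts passed in no other set of pools with all arrays in the fit. They were Os01g0186900, the P450 gene LOC_Os12g05440, LOC_Os04g40750 and LOC_Os02g37260. The C pools of LOC_Os02g37260 read 2.38 to 2.52 in F4 and 3.62 to 4.10 in F6, below the array medians of those generations (4.46 to 4.50 and 4.14 to 4.21), so a decrease could hardly have been seen there. In F6 the Ta pools of Os01g0186900 lay below C, at 6.01, 6.06 and 6.28 against 7.16, 7.90 and 6.36 in C, although that difference of -1.02 did not pass (adjusted p = 0.481); without C pool 3 of F6 it was -1.41 (adjusted p = 0.0325). The remaining called transcript, LOC_Os03g02470, passed in F4 (1.74, adjusted p = 0.0042) and neither in F6 (0.72, adjusted p = 0.628) nor with salt-stressed ancestors (2.15, adjusted p = 0.0538).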

How the data were processed

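Total RNA of each pool was labelled and hybridised to an Affymetrix rice gene array (WT PLUS kit). The deposited values are log2 signals that the authors computed with RMA in the Affymetrix Expression Console; versions were not stated. The values of all 54922 probe sets were used as deposited, with no filter. Probe sets were named through the platform annotation and the study's annotation of selected transcripts: 24080 had 1 gene symbol, 95 several (not named), 30747 none, and 348 had a description. Coordinates are those of the array's annotation. The authors' fold changes and p-values were not used.

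Ta minus C was estimated with limma 3.58.1 (R 4.3.3) on 9 arrays (C, NSb and Ta of F8, 6 residual degrees of freedom), with default eBayes, two-sided tests and Benjamini-Hochberg adjustment over all probe sets. A call required a change of 3-fold or more and an adjusted p below 0.05. F4, F6 and F8 with salt-stressed ancestors were fitted in the same way, each on its 9 arrays. Differences of differences were fitted on 18 arrays (F8) or 27 arrays (3 generations). Arrays have no read depth; their number limits the precision.

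Text names follow a rule: all called transcripts; the 15 largest in each direction under a 3-fold change with 1 symbol or description; ICE1 and the hygromycin gene; up to 6 members of each gene list by p; and the 5 with the smallest p in each difference of differences. Gene lists and markers were matched by symbol or synonym only, since the reference gives no descriptions. The comparison, lists and tests were chosen with earlier results of these data known. On simulated data for Ta against C of F8 (54922 probe sets) the fit recovered 85% of 100 changes of 2-fold and 99% of 100 changes of 4-fold at the adjusted p; 11 unchanged probe sets also passed. The call rule recovered 98% of the 4-fold changes, with 0 false calls, and 0% of the 2-fold changes, which lie under its 3-fold minimum. The simulated noise was normal and independent between probe sets, with SDs drawn towards their median. These shares therefore describe that setting and not the real arrays.

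Alternatives were other fold minimums, filters on SD and level, median centring, quantile normalisation, an intensity trend with robust variances, fits on 6, 18 or 45 arrays, the replicate number as a block, identical probe sets counted once, and leaving out each array. F6 without its C pool 3 was added after the data were seen. Tables and plots were made with pandas 2.3.3, numpy 2.4.6, matplotlib 3.10.9 and the R package data.table (version 1.17.8).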

Additional observations from a re-analysis of the deposited data

Results flagged for a closer look

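The following transcripts stood out because the Ta minus C difference of F8 departed from that of an earlier generation in the test of the difference itself (limma, 27 arrays, adjusted p under 0.05). Each value is the F8 difference minus the earlier one, on the log2 scale, and no cause was tested. For transcripts called in F8 the choice was made on the same F8 arrays, which can enlarge these values.

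Against F4 the FAD oxidoreductase gene LOC_Os07g34570 was higher by 2.42, OsFBO10 (LOC_Os11g34460) by 2.19, thiC (LOC_Os03g47610) by 2.16 and LOC_Os04g40750 by 2.12. On the lower side, LHY was at -1.18, LOC4337188 at -1.37, LOC4346474 at -0.97 and LOC_Os02g37260 at -1.67. The C pools of LOC_Os02g37260 lay below the array median in F4 and in F6, where little room was left for a decrease, so its differences between generations are no measure of a change in effect.

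Against F6, Os01g0186900 was at 3.38, LOC4341871 at 2.96, LOC_Os03g02470 at 2.50, LOC_Os03g43100 at 1.28 and LOC9266469 at 1.20. The annotation used here gave no function for these transcripts. Of the annotated genes, JAZ10 (LOC_Os03g08330) was at 2.16, BHLH148 (LOC_Os03g53020) at 1.79, OsFBO10 (LOC_Os11g34460) at 1.66, thiC (LOC_Os03g47610) at 1.52 (1.08 without C pool 3 of F6) and LOC_Os07g34570 at 1.39. Lower against F6 were LOC_Os02g37260 at -2.07, LOC_Os07g48800, a VQ domain protein gene, at -1.54 and LHY at -1.02. LOC4341871 was higher in Ta in F8 (1.20) and lower in F6 (-1.76), with F6 pools at 6.04, 6.57 and 6.31 in C and 4.17, 4.76 and 4.71 in Ta. For LOC_Os07g48800 the larger difference was in F6 (1.22, against -0.32 in F8), where C read 3.38, 2.90 and 3.07 and Ta 4.26, 4.56 and 4.20.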

How the results depend on the processing

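The number of calls, 19, ranged from 17 to 20 over the settings with a 3-fold minimum, with 16 to 19 of the original calls among them: 18 on the 6 arrays or with the level filter, 17 with the replicate block, 17 to 20 with 1 array left out and 19 elsewhere. They were 78 at a 2-fold minimum and 279 at none. Replicate numbers were only shared between lines: deviations of same-numbered C and Ta pools correlated at 0.016, -0.058 and -0.023. At any fold the 279 became 34 with the SD filter, 120 on the 6 arrays, 110 with the replicate block, 658 on 18 arrays, 818 on 45 and 89 to 233 with 1 array left out. Of the 72 named transcripts past the threshold, 31 passed with the SD filter and 42 to 64 with 1 array left out; 26 passed under every setting and none reversed. The 22 list members that passed were 3 with the SD filter, 9 on 6 arrays, 34 on 18, 35 on 45, 11 with the replicate block, 7 at a 2-fold minimum and 8 to 18 with 1 array left out. The 15 calls with salt-stressed ancestors were 14 to 17 with 1 array left out. The difference between the 2 sets of F8 pools had 0 calls, or 1 on 45 arrays (Pir7b, 1.46, SE 0.22, adjusted p = 0.00602). Against F4 the 302 became 496 on 45 arrays, 196 with the replicate block and 169 to 512 with 1 array left out. Against F6 the 128 became 220, 65 and 78 to 410. The cause was not tested beyond the change in arrays or degrees of freedom. Changes in transcripts below the array median, 8 of the 12 cold regulon members among them, are limited by background.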

Other observations

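By chromosome, the share of probe sets with an adjusted p under 0.05 among those with a chromosome given ran from 0.782% on chromosome 10 to 1.29% on chromosome 11, where 4 were higher and 14 lower in Ta. Among genes chosen after their values were seen, BBD1 was higher in Ta by 1.20 in F8 and by 1.67 with salt-stressed ancestors, and the thioredoxin gene LOC_Os02g53400 by 1.21 and 1.84.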
